A study of Mus musculus with 24 samples.

Results

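A set of 10 genes that encode the DNA-binding factor CTCF, its paralogue CTCFL and the cohesin complex with its regulators were followed through the RNA-Seq data of the series: Ctcf, Ctcfl, Rad21, Smc1a, Smc3, Stag1, Stag2, Nipbl, Wapl and Pds5a. They were chosen by name and function, as 10 of the 51912 genes in the count tables, by a rule that uses no measured value. Earlier results of these data were known when the choice was made. Of the 24 samples in the series, 9 are RNA-Seq libraries, with 3 each from mouse embryonic stem cells (ESCs), from neuronal progenitors (NPs) and from ESCs without TET proteins (TET TKO). The ESCs were wild type TC-1 cells of a C57BL/6 X 129S5 background, kept with the cytokine LIF. The NPs were derived from wild type ESCs of the same background by growing them as floating aggregates without LIF and then adding retinoic acid, and they were collected as whole aggregates, with no sorting of cell types. The TET TKO cells were ESCs with a triple knockout of Tet1, Tet2 and Tet3, the enzymes that oxidise methylated cytosine, in a C57BL/6 X 129/sv background. They are another cell line with another background and were sequenced more deeply, so the effects of genotype and of line cannot be told apart here.

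CTCF is a zinc finger protein that binds many sites in the genome, a part of them only when their CpGs are free of methylation. Cohesin is a ring of the subunits SMC1A, SMC3 and RAD21, to which either STAG1 or STAG2 is attached. NIPBL drives the loading of the ring and its movement along DNA, WAPL together with PDS5 proteins releases it, and CTCF stops it, so that chromatin loops form between CTCF sites. The same ring also holds sister chromatids together until cell division. CTCFL, also called BORIS, shares the zinc fingers of CTCF and is known mainly from the male germ line.

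Total counts ranged from 20570050 to 23976914 in ESCs, from 20519702 to 22132988 in NPs and from 80704741 to 93210102 in TET TKO. Levels are given as RPKM, counts divided by exon length and by scaled library size, and fold changes as log2 values with their standard error (SE) from edgeR. A gene was called when its Benjamini-Hochberg adjusted p over all genes tested was under 0.05, and genes that reached 1 RPKM in no library of the compared groups were not tested. RPKM values were scaled over all genes and all 9 libraries and fold changes over the tested genes of the 2 groups, so that RPKM ratios of TET TKO to ESCs stood 0.12 (log2, median over genes) above the fitted fold changes, against 0.01 for NPs. ESC libraries 1 and 2 were the most alike pair of replicates, with a chi-square of 2.37 per gene against 14.0 to 194 for the other pairs within a group, and no pair was alike within sampling noise. This value grows with depth, so the 109 to 194 of the deeper TET TKO pairs cannot be set directly against the other groups. GEO's labels do not say whether replicates were separate cultures, although the study's methods call them biological replicates. Summed over 8 ESC markers, including Pou5f1 and Nanog, the level was 2450 to 2530 RPKM in ESCs and 7.61 to 26.4 RPKM in NPs. In TET TKO the sum was 2300 to 3070 RPKM, mostly Dppa5a at 1240 to 1900 RPKM against 928 to 977 RPKM in ESCs. Dppa5a was called higher in TET TKO (log2 fold change 0.54). Zfp42 (-2.7), Klf4 (-1.06) and Esrrb (-0.72) were called lower there, and the other 4 ESC markers were not called. For 8 neural progenitor markers, including Pax6 and Nes, the sum was 150 to 253 RPKM in NPs and 4.64 to 5.59 RPKM in ESCs. Markers of other cell types were also present in NPs, with 5 endoderm markers at a summed 18.7 to 22.9 RPKM against 1.07 to 1.83 RPKM in ESCs. The sum of 5 fibroblast markers was 2.61 to 29.1 RPKM in NPs, highest in library 2, a range that held the 5.53 to 6.77 RPKM of ESCs. Of the 4 fibroblast markers tested, 3 were called higher in NPs and Thy1 lower (log2 fold change -2.88). Of 5 neuron markers, 80.0% were called in NPs, against 64.1% of all genes tested. Dcx (log2 fold change 11.43), Map2 (3.09) and Elavl3 (2.61) were higher, Stmn2 (-2.90) was lower and Tubb3 was not called. Their sum was 76.6 to 183 RPKM in NPs and 120 to 136 RPKM in ESCs. In TET TKO 4 trophoblast markers summed to 43.4 to 88.7 RPKM against 18.6 to 25 RPKM in ESCs. Most of this was Tfap2c, at 40.5 to 79.1 against 18.1 to 24.4 RPKM. The 5 mesoderm markers summed to 7.83 to 14.0 RPKM against 2.18 to 2.98 RPKM, mostly Hand1 at 6.08 to 13.1 RPKM. Another of them, T, was called lower (log2 fold change -2.08). The 8 neural progenitor markers summed to 8.89 to 19.1 RPKM, mostly Nes at 7.83 to 15.4 RPKM. A set of 16 proliferation genes summed to 1600 to 1700 RPKM against 1370 to 1410 RPKM. Of these, 3 were called, all higher, 18.8% against 33.6% of all genes tested. The part of these markers in the results below was not tested. In TET TKO the targeted genes were lower but not absent: Tet1 stood at 11.3 to 16.1 RPKM against 60.8 to 68.5 RPKM in ESCs, Tet2 at 2.32 to 2.70 RPKM against 16.1 to 20.5 RPKM, and Tet3 was low in both, at 0.474 to 0.617 and 0.631 to 0.770 RPKM. Whole-gene counts also include exons outside a deletion.

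Promoter windows from RefSeq (GRCm38.p6), from 250 bases before to 50 bases after a gene's start there, were at hand for 6 of the 10 genes: Ctcf, Smc1a, Smc3, Stag1, Wapl and Pds5a. That of Stag1 (chr9:100643198-100643497) lies inside the gene interval counted here (chr9:100597798-100959375) and not at its first base. All 6 held 23 to 55 CpGs, against a median of 7 over 32851 promoter windows, of which 21.5% held at least 23. All 6 also held the GC box GGGCGG on either strand, a motif found in 35.7% of all windows. The 250 bases before the start are shown for Ctcf (chr8:105636288-105636537), for Wapl (chr14:34673678-34673927), the member with the largest fall in NPs, and for Smc1a (chrX:152016178-152016427), which rose in NPs, all on the plus strand and with the GC box, as GGGCGG or its reverse complement, in capitals.
Ctcf: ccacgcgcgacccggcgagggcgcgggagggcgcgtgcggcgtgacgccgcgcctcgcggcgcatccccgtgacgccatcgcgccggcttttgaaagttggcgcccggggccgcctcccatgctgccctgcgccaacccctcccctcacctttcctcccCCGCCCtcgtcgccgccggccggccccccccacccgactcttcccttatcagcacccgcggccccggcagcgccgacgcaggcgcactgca
Wapl: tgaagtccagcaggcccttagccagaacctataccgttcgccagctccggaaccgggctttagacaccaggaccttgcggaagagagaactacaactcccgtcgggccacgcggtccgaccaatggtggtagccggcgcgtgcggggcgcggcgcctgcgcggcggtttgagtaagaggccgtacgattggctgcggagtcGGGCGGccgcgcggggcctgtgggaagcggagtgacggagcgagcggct
Smc1a: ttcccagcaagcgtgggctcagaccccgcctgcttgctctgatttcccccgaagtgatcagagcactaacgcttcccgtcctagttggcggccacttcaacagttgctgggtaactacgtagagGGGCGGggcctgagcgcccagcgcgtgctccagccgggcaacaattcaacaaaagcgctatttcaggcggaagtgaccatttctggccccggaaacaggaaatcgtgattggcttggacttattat
Each of these stretches holds 1 GC box. They hold 40 CpGs for Ctcf, 32 for Wapl and 16 for Smc1a, so that genes that fell, rose or were not called in NPs all start in CpG-rich sequence. A match says only that these letters are in the window.

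In ESCs the cohesin ring subunits were among the more highly expressed genes of the cell. Rad21 had the highest level of the 10 genes at 144 ± 9.40 RPKM (SD, n = 3), above 98.4% of the genes with at least 1 RPKM, followed by Smc3 at 66.5 ± 3.13 RPKM and Wapl at 56.9 ± 3.73 RPKM. Ctcf at 45.4 ± 4.55 RPKM and Smc1a at 43.7 ± 0.245 RPKM came next, and their ranges overlapped. Nipbl at 25.1 ± 2.46 RPKM and Pds5a at 14.5 ± 0.291 RPKM followed, and Stag1 at 11.9 ± 0.700 RPKM and Stag2 at 11.7 ± 1.44 RPKM had overlapping ranges. Ctcfl was last at 0.893 ± 0.0838 RPKM. Levels were divided by the length of all exons in the annotation, which is 19335 bases for Pds5a and 3604 bases for Rad21, so a gene with long exons that are little used in these cells comes out lower. In NPs Smc1a stood at rank 2, apart from Smc3, and Wapl went from rank 3 to rank 5. In TET TKO the order of the first 6 genes was that of ESCs, with overlapping ranges of Wapl and Ctcf, and Stag2 stood above Stag1 with ranges apart.

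**Figure D1:**
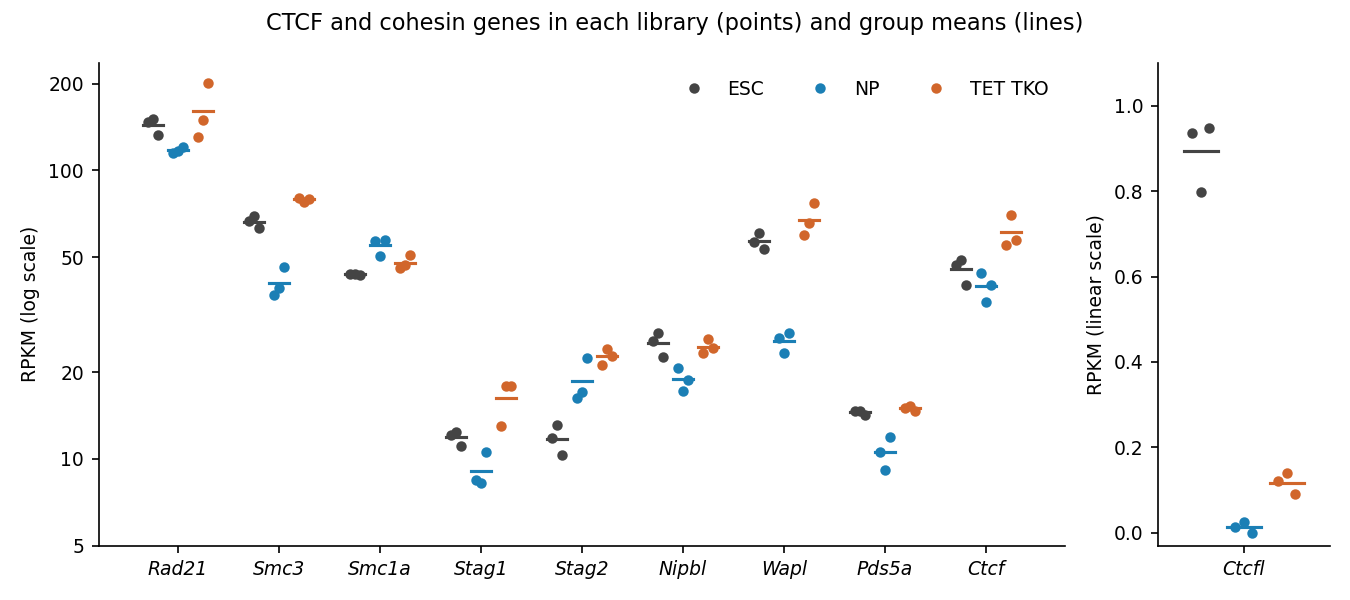
Level of each gene in RPKM in the 9 libraries, on a log axis for 9 genes and on a linear axis for Ctcfl, with points for libraries and lines for group means of ESC, NP and TET TKO. Wapl and Smc3 are lowest in NPs, Stag2 is lowest in ESCs, and Ctcfl is highest in ESCs.

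Which of these genes changed when ESCs became NPs was asked first. Of the 9 members tested, 8 were called, in a comparison in which 64.1% of all 15197 genes tested were called. Smc1a and Stag2 rose, while Rad21, Smc3, Stag1, Nipbl, Wapl and Pds5a fell, and only Ctcf among the 9 was not called. The share of all tested genes called higher was 32.5% and the share called lower was 31.5%. The median log2 fold change was -0.39 over the 9 members and 0.03 over all genes tested. RPKM ranges of the groups did not overlap for 8 of the 9, all but Ctcf, and this was so for 71.9% of all genes tested. Changes were moderate: 0 members met the limits of the study, an adjusted p under 0.001 and a change of at least 3-fold, which 22.3% of genes met. Wapl, Smc3, Stag2 and Pds5a were the 4 calls left when ESC library 1 or ESC library 2 was left out.

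The ring subunits did not move together. Smc3 (ENSMUSG00000024974, chr19:53600398-53645833 in GRCm38) encodes an ATPase arm of the ring and had 66.7, 69.5 and 63.3 RPKM in the ESC libraries and 37.0, 39.0 and 46.1 RPKM in the NP libraries. All 3 NP values lay below all ESC values. It fell by 0.72 on the log2 scale (SE 0.12, adjusted p = 0.000971), which is 1.65-fold. Its partner arm Smc1a (ENSMUSG00000041133, chrX:152016428-152062694) had 43.9, 43.8 and 43.4 RPKM in ESCs and 57.1, 50.7 and 57.6 RPKM in NPs. The ESC libraries were nearly equal and all NP libraries were higher, with a log2 fold change of 0.32 (SE 0.10, adjusted p = 0.0235). Rad21 (ENSMUSG00000022314, chr15:51962605-51991760), whose product closes the ring and is cut at anaphase, had 147, 151 and 133 RPKM in ESCs and 115, 117 and 121 RPKM in NPs. The groups did not overlap, and the log2 fold change was -0.30 (SE 0.10, adjusted p = 0.0324). The calls of Smc1a and Rad21 were lost without ESC library 1 (adjusted p = 0.0852 and 0.146) and without ESC library 2 (0.0917 and 0.140). That of Smc1a was also lost without ESC library 3 (0.0710) and without NP library 3 (0.0552). Rad21 further lost its call with library sizes alone as the scaling (0.0964), without the filter on low values (0.0692) and in a fit of all 3 groups (0.0963).

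The alternative STAG subunits moved in opposite directions. Stag1 (ENSMUSG00000037286, chr9:100597798-100959375) had 12.1, 12.4 and 11.1 RPKM in ESCs and 8.43, 8.26 and 10.6 RPKM in NPs, a log2 fold change of -0.39 (SE 0.13, adjusted p = 0.0307). Its NP library 3 lay closest to the ESCs but still below them. Stag2 (ENSMUSG00000025862, chrX:42149317-42277185) had 11.8, 13.1 and 10.3 RPKM in ESCs and 16.2, 17.1 and 22.4 RPKM in NPs, and rose by 0.65 on the log2 scale (SE 0.16, adjusted p = 0.00731), 1.57-fold. All NP libraries were above all ESC libraries. The call of Stag1 was lost without ESC library 1 (adjusted p = 0.108), ESC library 2 (0.102) or NP library 2 (0.0586) and with library sizes alone as the scaling (0.0679), and that of Stag2 was kept in each of these. Smc1a and Stag2 are the 2 X-linked members. Among all 536 X-linked genes tested, 177 were called higher and 185 lower, with a median log2 fold change of 0.04.

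Nipbl, Wapl and Pds5a, which act in loading and release, fell. Nipbl (ENSMUSG00000022141, chr15:8291225-8444463), the loader, had 25.6, 27.3 and 22.5 RPKM in ESCs and 20.7, 17.2 and 18.7 RPKM in NPs, with a log2 fold change of -0.43 (SE 0.12, adjusted p = 0.0144). The groups did not overlap, and the call was lost without ESC library 1 (adjusted p = 0.0649) or ESC library 2 (0.0725). Wapl (ENSMUSG00000041408, chr14:34673928-34747983), the release factor, had 56.3, 60.9 and 53.5 RPKM in ESCs and 26.2, 23.2 and 27.4 RPKM in NPs. It had the largest change of the 9 members, a fall of 2.24-fold (log2 fold change -1.16, SE 0.12, adjusted p = 4.9e-05). Pds5a (ENSMUSG00000029202, chr5:65605721-65698273), whose product binds the ring and takes part in its release, had 14.6, 14.7 and 14.2 RPKM in ESCs and 10.6, 9.17 and 11.9 RPKM in NPs. Its log2 fold change was -0.47 (SE 0.12, adjusted p = 0.0101) with no overlap between groups. In whole aggregates, fewer cells of a type and less RNA per cell cannot be told apart. Because cohesin also serves cell division, 16 proliferation genes were set beside these values. Of them 2 were called higher in NPs, Mki67 and Aurkb, and 7 lower, 56.2% called against 64.1% of all genes tested, led by the cyclin gene Ccne1 with a log2 fold change of -1.92 (SE 0.10, adjusted p = 1.73e-06), and their summed level was 975 to 1030 RPKM in NPs against 1370 to 1410 RPKM in ESCs. The part of proliferation in the members' values was not tested.

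Ctcf itself was not called. Ctcf (ENSMUSG00000005698, chr8:105636568-105682922) had 47.1, 48.8 and 40.2 RPKM in ESCs and 44.0, 35.1 and 40.0 RPKM in NPs. The groups overlapped, and the log2 fold change of -0.21 (SE 0.13, adjusted p = 0.191) did not pass the test. Leaving out NP library 1 brought it to -0.31 (adjusted p = 0.0458). Exons of Ctcf share 7.613% of their bases with Agrp and Gm5914 on the other strand, and reads were counted without regard to strand. Ctcfl (ENSMUSG00000070495, chr2:173093609-173119525) had 64, 56 and 75 counts in the ESC libraries and 1, 2 and 0 counts in the NP libraries. It did not reach 1 RPKM in any library and so was not tested with the other members. Summed over libraries and scaled for depth, it was 66.0-fold higher in ESCs than in NPs, with a 95% interval of 22.3 to 323 that covers counting error only. Without the filter on low values, it was called, with a log2 fold change of -5.88 (SE 0.60, adjusted p = 2.04e-09), in a fit that called 39.7% of 31654 genes. The antisense gene Ctcflos, which shares 5.316% of the exon bases of Ctcfl, had 4 to 8 counts in ESCs and 0 counts in each NP library.

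**Figure D2:**
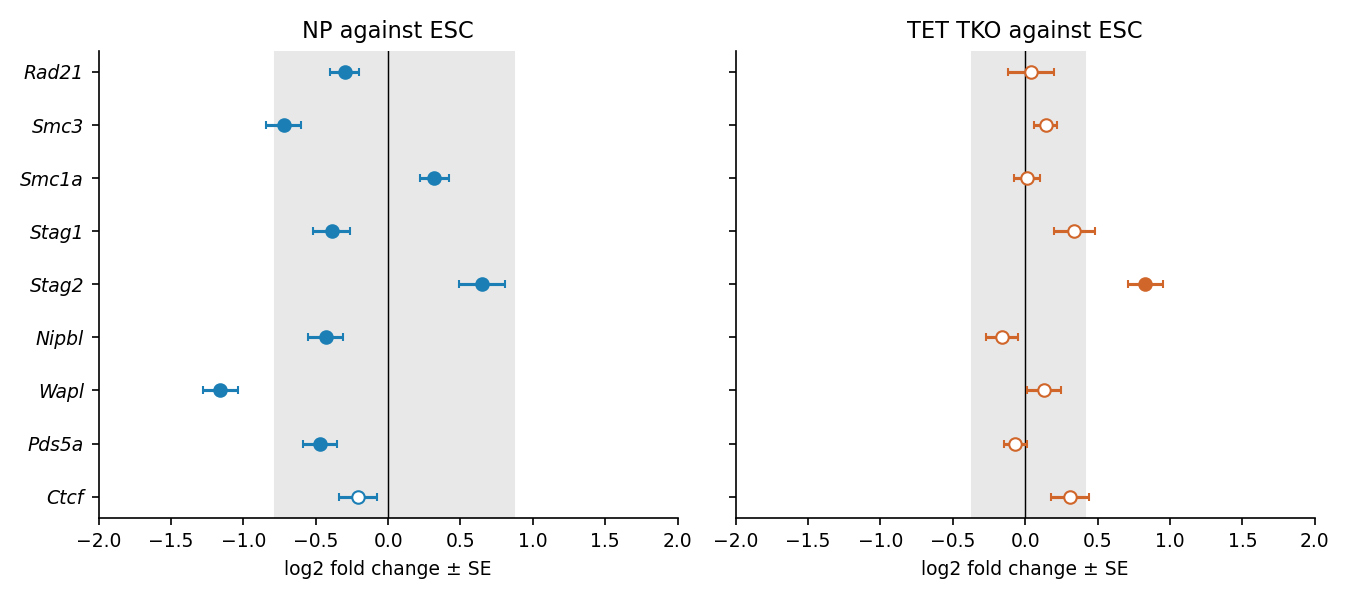
Log2 fold change with its SE for the 9 tested members, in NPs and in TET TKO against the same ESC libraries, with filled points for called genes and a grey band from the lower to the upper quartile of all genes tested. Wapl alone lies outside the band in NPs, and Stag2 alone in TET TKO.

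The second comparison asked whether the same genes differ in ESCs without TET proteins. It shares its ESC libraries with the first. Of the 9 members tested, 1 was called, Stag2, which was higher, where 33.6% of all 13939 genes tested were called (17.6% higher and 16.0% lower), and 0 met the limits of the study, as 2.14% of genes did. The median log2 fold change was 0.13 over the members and 0.02 over all genes tested. Groups did not overlap in RPKM for 6 of the 9, against 51.8% of all genes tested, and Rad21, Nipbl and Wapl overlapped. Without TET TKO library 1 the count was 2, with Stag1 as the second (log2 fold change 0.47, adjusted p = 0.0163).

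Stag2 had 21.2, 24.1 and 22.8 RPKM in the TET TKO libraries, all above the ESC maximum of 13.1 RPKM. It was 1.78-fold higher (log2 fold change 0.83, SE 0.12, adjusted p = 0.00209). With the TET TKO libraries thinned to the median depth of ESCs the value was 0.82 (SE 0.12, adjusted p = 0.00235), so the call did not need the greater depth. Of 501 X-linked genes tested, 80 were called higher and 82 lower. Stag1 had 13.0, 17.9 and 17.9 RPKM in TET TKO, with library 1 nearest to the ESCs, and a log2 fold change of 0.34 (SE 0.14, adjusted p = 0.0998) that missed the threshold.

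For the ring subunits no change was detected. Smc1a had 45.8, 46.9 and 51.0 RPKM in TET TKO and a log2 fold change of 0.01 (SE 0.09, adjusted p = 0.918), and Smc3 had 80.3, 78.0 and 79.9 RPKM and a log2 fold change of 0.14 (SE 0.08, adjusted p = 0.241). Both lay above the ESC range in RPKM, a scale on which TET TKO stood higher by 0.12. Rad21 had 131, 150 and 201 RPKM, the widest spread of the members, and a log2 fold change of 0.04 (SE 0.16, adjusted p = 0.866). Among the regulators, Nipbl had 23.2, 26.0 and 24.3 RPKM (log2 fold change -0.16, SE 0.11, adjusted p = 0.286), within the ESC range. Wapl, at 59.6, 65.9 and 77.1 RPKM, had a log2 fold change of 0.13 (SE 0.12, adjusted p = 0.429). Pds5a stood at 15.0, 15.2 and 14.7 RPKM, with a log2 fold change of -0.07 (SE 0.08, adjusted p = 0.533). These misses do not show that the levels were equal. Ctcf had 55.2, 70.1 and 57.6 RPKM, all above the ESC maximum of 48.8 RPKM, and its log2 fold change of 0.31 (SE 0.13, adjusted p = 0.0997) missed the threshold. Without the filter on low values, Ctcf (0.42, adjusted p = 0.0215) and Stag1 (0.45, adjusted p = 0.0197) were called too, in a fit in which the median of all genes was 0.12 in place of 0.02. Without TET TKO library 2 the value of Ctcf was 0.19 (adjusted p = 0.224).

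Ctcfl had 30, 32 and 25 counts in the TET TKO libraries, fewer than in any ESC library although these libraries were deeper. Scaled for depth, it was 7.77-fold higher in ESCs, with a 95% counting interval of 6.01 to 10.1. As in NPs, it was not among the members tested. With all genes kept, its log2 fold change was -2.94 (SE 0.38, adjusted p = 4.27e-06), in a fit that called 19.3% of genes. Ctcflos had 2 counts in all in the TET TKO libraries.

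Ratios between paired members are free of library scaling, so they were compared within each library. STAG1 and STAG2 compete for the same place on the ring. The Stag1 to Stag2 ratio of RPKM was 1.03, 0.943 and 1.08 in ESCs, 0.520, 0.483 and 0.474 in NPs and 0.615, 0.745 and 0.786 in TET TKO. All 6 libraries of NPs and TET TKO lay below the lowest ESC library, with log2 differences of -1.05 in NPs and -0.51 in TET TKO. Stag2 made up 48.1% to 51.5% of the summed Stag1 and Stag2 level in ESCs, 65.8% to 67.9% in NPs and 56.0% to 61.9% in TET TKO. These shares, and a ratio near 1, depend on the annotated exon lengths, 11781 bases for Stag1 and 8273 bases for Stag2. The sum itself, which is not free of library scaling, was 21.3 to 25.5 RPKM in ESCs, 24.7 to 33.0 RPKM in NPs and 34.3 to 42.0 RPKM in TET TKO.

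WAPL and NIPBL act against each other on the time that cohesin stays on DNA. The Wapl to Nipbl ratio was 2.20, 2.23 and 2.38 in ESCs, 1.27, 1.35 and 1.46 in NPs and 2.57, 2.54 and 3.17 in TET TKO. It was lower in every NP library and higher in every TET TKO library than in any ESC library, with log2 differences of -0.74 and 0.28. The latter was 0.17 without TET TKO library 3. PDS5A and PDS5B are paralogues. Their ratio was 1.05, 1.01 and 1.04 in ESCs, 0.674, 0.667 and 0.680 in NPs and 1.19, 0.937 and 1.06 in TET TKO. NPs lay below ESCs by 0.62 (log2 difference -0.62), and TET TKO overlapped them with a log2 difference of 0.03. In a two-sided exact permutation test, 5 of these 6 comparisons gave p = 0.1 (adjusted p = 0.12), the smallest that 3 libraries against 3 allow, and that of Pds5a to Pds5b in TET TKO gave p = 0.7 (adjusted p = 0.7). None can pass 0.05 in this design.

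**Figure D3:**
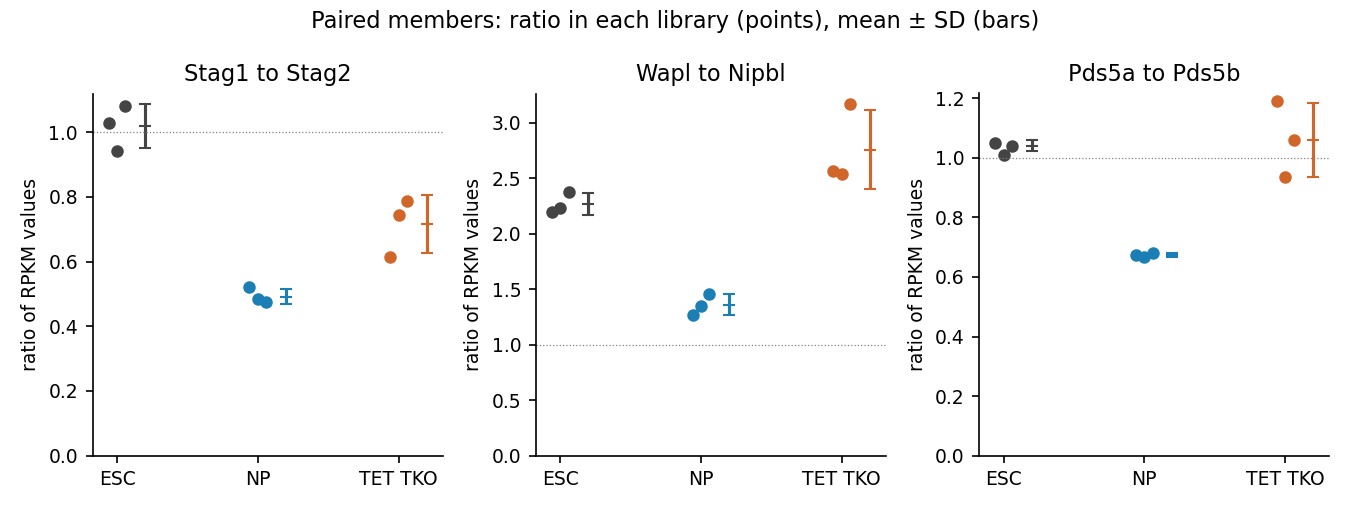
Ratio of RPKM values within each library for Stag1 to Stag2, Wapl to Nipbl and Pds5a to Pds5b, with points for libraries and bars for mean ± SD in ESC, NP and TET TKO, and a dotted line at equality. All 3 ratios are lowest in NPs, and those of Stag1 to Stag2 are below 0.8 in every NP and TET TKO library.

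Among 38 further genes of the SMC complexes and CTCF's partners, 37 were tested in each comparison. In NPs 8 were called higher and 14 lower, 59.5% against 64.1% of all genes tested, and in TET TKO 10 higher and 2 lower, 32.4% against 33.6%, so both shares lay near those of all genes. The TET TKO count of 12 fell to 2 without ESC library 1, to 3 without ESC library 2 and to 5 without ESC library 3. Of 10 other cohesin regulators, 1 rose and 6 fell in NPs, 70.0% called against 64.1% of all genes tested. Esco2, which acetylates SMC3 during replication, had 35.1, 35.9 and 36.2 RPKM in ESCs and 5.70, 8.48 and 9.77 RPKM in NPs, a 4.51-fold fall (log2 fold change -2.17, SE 0.19, adjusted p = 2.88e-05). Espl1, the separase that cuts RAD21, fell 2.40-fold (log2 fold change -1.26, SE 0.11, adjusted p = 2.61e-05), and Haspin, a kinase of mitotic chromosomes, 1.95-fold (-0.96, SE 0.15, adjusted p = 0.000576). Sgo1 (-0.90), Esco1 (-0.89) and Cdca5 (-0.88), which guard or establish cohesion, fell as well. Hdac8, the deacetylase that recycles SMC3, rose by 0.93 on the log2 scale (SE 0.18, adjusted p = 0.00218), from 1.41 to 1.56 RPKM in ESCs to 2.63 to 3.06 RPKM in NPs. Pds5b, Mau2 and Pttg1 did not pass the test. In TET TKO 4 of the 10 were called, 40.0% against 33.6% of all genes tested, and all 4 were higher: Pttg1, the separase inhibitor securin, by a log2 fold change of 0.76 (SE 0.22, adjusted p = 0.0313), Esco1 by 0.39, Esco2 by 0.33 and Cdca5 by 0.33.

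Cohesin subunits known from meiosis, and Sgo2a, a relative of Sgo1, were read in all groups. Smc1b had 8.47, 7.09 and 14.3 RPKM in ESCs and 0.337, 0.968 and 0.363 RPKM in NPs, and Stag3 had 14.1, 12.5 and 16.5 RPKM in ESCs and 2.83, 2.79 and 1.08 RPKM in NPs. Both fell, by log2 fold changes of -4.16 (SE 0.45, adjusted p = 8.33e-05) and -2.70 (SE 0.33, adjusted p = 0.000155), and Sgo2a fell too (-1.34, SE 0.14, adjusted p = 5.44e-05). Of the 4 tested, Rec8, the meiotic counterpart of Rad21, was not called (1.42, SE 0.66, adjusted p = 0.0893). It had 58.9 RPKM in NP library 2 against 8.30 and 11.4 RPKM in NP libraries 1 and 3. So 3 of the 4 were called in NPs, all lower, where 64.1% of all genes tested were called and 31.5% were called lower. In TET TKO 0 of the 4 passed edgeR's test, where 33.6% of all genes tested were called. Sgo2a came nearest (log2 fold change 0.63, SE 0.22, adjusted p = 0.0588). Its RPKM range lay apart from that of ESCs, as for 51.8% of all genes tested. Rad21l was below the filter throughout, with 5 counts over the ESC libraries and 139 over the TET TKO libraries, 8.02-fold more after scaling for depth (95% counting interval 3.35 to 25.1).

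**Figure D4:**
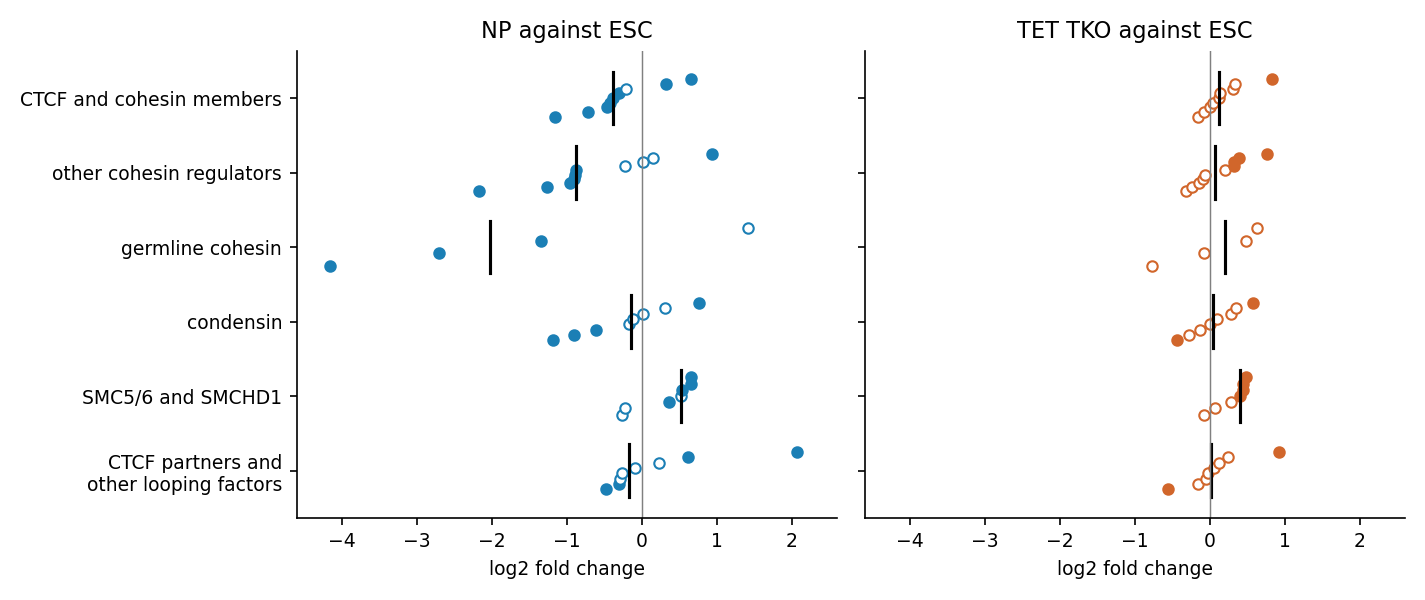
Log2 fold change of each tested gene in NPs and in TET TKO against the same ESC libraries, by gene list, with filled points for called genes and a black line at the list's median. In NPs the median is -0.89 for other cohesin regulators and -2.02 for germline cohesin, and in TET TKO it is 0.07 and 0.20.

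Genes whose level followed that of Ctcf most closely were sought among 12931 genes with a mean of at least 1 RPKM, by Pearson's r of log2(RPKM + 1) over the 9 libraries. Among the 5 highest were Thrap3 (0.984), Otud4 (0.980), Cenpn (0.972) and Srsf11 (0.964). Thrap3 had means of 20.7 RPKM in ESCs, 17.6 RPKM in NPs and 28.0 RPKM in TET TKO. Among the members, Stag1 was nearest to Ctcf (0.889) and Smc1a (-0.27) and Ctcfl (-0.066) farthest. These values describe 9 libraries in 3 groups that share their scaling.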

How the data were processed

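RNA-Seq libraries were prepared with a stranded mRNA kit from ESCs, NPs and TET TKO cells (3 libraries each). The authors trimmed single-end reads, aligned them with STAR 2.6.1b to GRCm38 and counted them per gene with featureCounts 1.6.2, without strand, on Ensembl 89 models. The deposited values are raw counts for 51912 genes in 9 columns, of which 0 matched no sample, and 51633 genes had a symbol. Reads that map to several places or genes are dropped by default in that tool, which lowers genes with copies or overlaps. Trimmomatic 0.38 is among the tools in the submitters' processing notes. The methylation tables of the series were not used here.

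RPKM values were computed here with TMM scaling over all genes and libraries (factors 0.8847 to 1.0981) and the exon lengths in the tables. Groups were compared pairwise with edgeR 4.0.16 (quasi-likelihood test, R 4.3.3) on genes with at least 1 RPKM in at least 1 library, with Benjamini-Hochberg adjustment. Fits were checked on simulated counts. DESeq2 1.42.0, other filters and scaling, a replicate block, thinned TET TKO counts and leaving out each library were alternatives. Named genes are the 10 members, the TET genes, up to 4 called genes with the largest changes in each further list, and the 5 genes most like Ctcf in pattern, of which 1 is not reported here; others were named after their values were seen. Members and lists were chosen with earlier results of these data known. Counting intervals are exact and cover counting error only. Python 3.11.15 with pandas 2.3.3, numpy 2.4.6, scipy 1.17.1 and matplotlib 3.10.9 was used for the other steps.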

Additional observations from a re-analysis of the deposited data

How the results depend on the processing

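Of 108 values of single members in NPs under the alternatives, 89 kept their direction and their side of the threshold, 18 lost the call, 1 gained it and 0 changed direction. Of 118 in TET TKO, 108 were kept, 3 gained a call and 7 changed direction, all of them in genes that were not called. Wapl, Smc3, Stag2 and Pds5a in NPs and Stag2 in TET TKO were called in all fits at an adjusted p under 0.05. Same-numbered replicates did not deviate together in every pair, with correlations of -0.123 to 0.009 in NPs and -0.08 to 0.306 in TET TKO. Different numbers gave -0.082 to 0.109 in NPs and -0.393 to 0.19 in TET TKO. The highest values in TET TKO were those of same-numbered libraries 2 (0.306) and 3 (0.214). So few libraries cannot show whether the numbers pair the samples. With the replicate block the members called in NPs were 5, and in TET TKO 1: Smc1a (adjusted p = 0.0723), Rad21 (0.0988) and Stag1 (0.0542) lost their calls in NPs. In NPs leaving out a replicate gave 4 to 9 members called and 19 to 26 of the 37 further genes, and the limits of the study gave 0 and 4. In TET TKO leaving out a replicate gave 1 to 2 members called and 2 to 14 further genes, and the limits of the study gave 0 of both. Members called in TET TKO were 4 without the filter on low values, including Ctcfl, and 2 with at least 10 counts in every library. Scaling by library sizes alone moved the median of all genes in NPs from 0.03 to 0.11 and in TET TKO from 0.02 to -0.04, and the share of calls that were higher in TET TKO from 52.4% to 44.6%. Reversed values in TET TKO were Smc1a by library sizes alone (-0.04), without TET TKO replicate 3 (-0.04) and in thinned counts (-0.02), Rad21 by library sizes alone (-0.01), without ESC replicate 3 (-0.01) and without TET TKO replicate 3 (-0.16), and Pds5a without the filter (0.04). Leaving out a replicate gave -0.16 to 0.17 for Rad21 in TET TKO. The Pds5a to Pds5b difference in TET TKO ranged from -0.06 to 0.12 when a replicate was left out. The cause of these changes was not tested.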

Other observations

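SMC complexes other than cohesin were measured in the same libraries. Of 8 condensin genes, which compact chromosomes in mitosis, 1 rose and 3 fell in NPs, 50% called against 64.1% of all genes tested. Ncapd3, a subunit of condensin II, fell 2.29-fold (log2 fold change -1.19, SE 0.12, adjusted p = 4.57e-05 in edgeR), from 20.8 to 21.4 RPKM in ESCs to 8.20 to 10.1 RPKM in NPs, and it was also lower in TET TKO (-0.43, SE 0.09, adjusted p = 0.00879). Smc2, an ATPase arm shared by both condensins, fell (-0.90, SE 0.20, adjusted p = 0.0042) and so did Ncapg (-0.61, SE 0.15, adjusted p = 0.00645). Ncapd2, a subunit of condensin I, rose in NPs (0.76, SE 0.24, adjusted p = 0.0212), with 154 RPKM in NP library 1 against 83.6 and 79.2 RPKM in the other two, and in TET TKO (0.58, SE 0.10, adjusted p = 0.00507).

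Of 7 genes of the SMC5/6 repair complex with Smchd1, 4 rose and 0 fell in each comparison, 57.1% called. Of all genes tested, 64.1% were called in NPs (32.5% higher) and 33.6% in TET TKO (17.6% higher). The genes that rose in NPs were Nsmce1 (0.66), Nsmce3 (0.66), Nsmce4a (0.54) and Smchd1 (0.36), and in TET TKO Nsmce2 (0.49), Nsmce4a (0.44), Smchd1 (0.44) and Smc6 (0.40). Without ESC library 1, only 2 of all 37 further genes were called in TET TKO. Smchd1, which takes part in X inactivation, had 7.28 to 7.56 RPKM in ESCs, 8.94 to 10.5 RPKM in NPs and 10.4 to 11.8 RPKM in TET TKO, with no overlap of either group with ESCs.

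Of 8 partners of CTCF and other looping factors, 2 rose and 2 fell in NPs, 50% called against 64.1% of all genes tested, and 1 rose and 1 fell in TET TKO, 25% against 33.6%. Vezf1, a zinc finger protein that binds insulators, rose 4.19-fold in NPs, from 9.89, 9.89 and 12.6 RPKM in ESCs to 43.1, 46.7 and 46.9 RPKM (log2 fold change 2.07, SE 0.13, adjusted p = 4.66e-06), and had 20.7, 19.0 and 26.9 RPKM in TET TKO (0.92, SE 0.16, adjusted p = 0.00534). Chd8, a chromatin remodeller that binds CTCF, was lower in both (-0.48, SE 0.12, adjusted p = 0.00597, and -0.56, SE 0.14, adjusted p = 0.0178). Maz rose (0.62) and Zfp143 fell (-0.31) in NPs.

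The Y-linked genes Ddx3y, Eif2s3y and Uty were lower in NPs than in ESCs, by log2 fold changes of -1.80 (SE 0.17, adjusted p = 3.74e-05), -1.15 (SE 0.14, adjusted p = 0.000132) and -0.93 (SE 0.17, adjusted p = 0.00138). Of all genes tested in NPs, 64.1% were called and 31.5% were called lower. Kdm5d, also Y-linked, was below the filter there, with overlapping 0.0996 to 0.681 RPKM in NPs and 0.322 to 0.633 RPKM in ESCs. In TET TKO Ddx3y (-0.58) and Uty (-0.62) were called lower, Kdm5d (2.06) higher, and Eif2s3y was not called, against 33.6% of all genes tested. None of these Y-linked genes had a level of 0 in any library, and Xist stayed at or below 0.380 RPKM in all 9.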
